A study of Drosophila melanogaster with 2 samples.

Results

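Binding of CLAMP was described at 10 genes for proteins of the muscle sarcomere, Tm1, Tm2, Mhc, Mlc2, up, wupA, sls, Act57B, Act87E and Act88F, out of 13865 protein-coding genes on chromosome arms 2L, 2R, 3L, 3R and X. The genes were listed by name, and every ChIP-seq region whose summit lay inside a gene or within 10 kb of it was collected. Binding had been mapped by ChIP-seq with an antibody against GFP in whole Drosophila melanogaster embryos, males and females pooled, aged 0 to 24 h, of 1 transgenic line (strain CG1832-GFP) that stably makes CG1832, the CLAMP protein, with GFP at its C-terminus. All samples carried the fusion and formed 1 group of 2 biological replicates, numbered 4 and 2. Chromatin had been sonicated to 200 to 800 bp. No untagged line and no second condition was analysed here, so no test between groups was made.

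Muscle contracts when the heads of myosin thick filaments pull on actin thin filaments. Tropomyosin lies along the actin filament and, together with the troponin complex, makes its use by myosin depend on calcium, while titin-like proteins tie the filaments elastically to the Z-disc. In flies many of these proteins exist as isoforms made by separate genes or by separate promoters and exons of a gene, and Tm1 is known to give both muscle and cytoskeletal tropomyosins. CLAMP is a zinc-finger protein that binds GA-rich DNA and is best known for helping to raise the output of the X chromosome in males. Because the embryos were whole, each region averages muscle cells with all other cells, and occupancy in fewer cells cannot be told apart from weaker occupancy in each cell. All 10 genes are annotated as protein-coding, and the lists hold no expression values, so whether the genes were transcribed in the bound cells was not measured.

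The sequences that carried the peaks differed between the genes, and those of 7 peaks are shown, ranging from long GA repeats to none. Not shown are the peaks counted for wupA and Act57B. Within 100 bp of the summit the longest GA repeat was 5 bp for wupA and 5 and 6 bp for Act57B. The peak upstream of Act57B also holds a GA repeat of 15 bp, outside those 100 bp. The sequences shown are from RefSeq's Release 6 genome sequence (dm6), plus strand, 5′ to 3′, 100 bases to each side of the summit. The windows of the Tm1 peak at 15290893 and of the up peak stop at the neighbouring TSSs. Capitals mark uninterrupted alternations of G and A, or of C and T, which are GA runs of the other strand, of 5 bp or more.
Tm1 peak at 15286876, chr3R:15286776-15286976: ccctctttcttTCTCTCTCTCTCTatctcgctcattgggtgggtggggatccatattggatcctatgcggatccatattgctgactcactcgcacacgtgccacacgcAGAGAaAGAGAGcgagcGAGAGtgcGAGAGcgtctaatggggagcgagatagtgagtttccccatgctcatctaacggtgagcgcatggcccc
Tm1 peak at 15290080, chr3R:15289980-15290180: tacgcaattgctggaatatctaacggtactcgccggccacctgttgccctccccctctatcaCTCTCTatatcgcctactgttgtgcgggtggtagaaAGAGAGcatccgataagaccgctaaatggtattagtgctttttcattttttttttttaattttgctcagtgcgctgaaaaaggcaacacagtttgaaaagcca
Tm1 peak at 15290893, chr3R:15290800-15290943: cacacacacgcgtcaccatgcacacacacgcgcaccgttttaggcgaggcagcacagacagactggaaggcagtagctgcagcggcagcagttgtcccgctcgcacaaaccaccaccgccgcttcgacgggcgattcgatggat
Tm1 peak at 15291691, chr3R:15291591-15291791: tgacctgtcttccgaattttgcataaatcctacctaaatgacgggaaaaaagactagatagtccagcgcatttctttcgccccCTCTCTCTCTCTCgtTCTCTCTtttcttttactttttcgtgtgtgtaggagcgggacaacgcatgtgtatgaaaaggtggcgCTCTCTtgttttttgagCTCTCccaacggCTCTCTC
Tm2 peak at 15314171, chr3R:15314071-15314271: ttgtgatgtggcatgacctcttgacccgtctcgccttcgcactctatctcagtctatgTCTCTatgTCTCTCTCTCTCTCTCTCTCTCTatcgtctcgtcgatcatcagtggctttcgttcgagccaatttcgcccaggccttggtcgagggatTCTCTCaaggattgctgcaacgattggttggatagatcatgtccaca
Mhc peak at 16787705, chr2L:16787605-16787805: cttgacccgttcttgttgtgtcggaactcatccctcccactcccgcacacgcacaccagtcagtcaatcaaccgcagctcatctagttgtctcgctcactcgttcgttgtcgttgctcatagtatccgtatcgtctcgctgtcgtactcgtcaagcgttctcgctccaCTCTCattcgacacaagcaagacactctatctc
up peak at 13602645, chrX:13602579-13602745: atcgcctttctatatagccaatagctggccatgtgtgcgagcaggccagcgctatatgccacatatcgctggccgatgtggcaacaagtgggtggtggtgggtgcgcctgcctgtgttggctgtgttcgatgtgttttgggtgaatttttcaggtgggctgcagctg

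The windows around the Tm1 summits at 15286876 and 15291691 each held a GA run of 13 bp on the minus strand together with several shorter ones. In Tm2 a single run reached 23 bp, the longest in any member's peak. The windows of Mhc and up, in contrast, had a longest run of 5 and 3 bp. The Tm1 window at 15290893, the strongest peak of all 10 genes, held no run of 5 bp or more in the stretch shown; its 8-bp run lies past the TSS at 15290944.

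At the 10 genes CLAMP occupancy was uneven: Tm1 had a cluster of strong peaks and the others had weak peaks or none. An optimal peak, one of those that passed the authors' irreproducible discovery rate step (3071 on the 5 arms), lay inside or within 10 kb of 6 of the 10 genes, against 40.4% of all protein-coding genes. These were Tm1, Tm2, Mhc, up, wupA and Act57B. Long genes offer more room for a peak. Of the 3 members of 20 kb or more, Tm1 and Mhc had an optimal peak, against 63.1% of genes of that length. All 3 members of 5 to 20 kb had one, against 51.0%, and 1 of the 4 members under 5 kb, against 35.7%. A summit lay inside the gene itself for 3 of 10 members, Tm1, Tm2 and Mhc, against 9.89% of all genes. By length, this held for 2 of 3 long members, against 47.1% of long genes, for 1 of 3 members of middle length, against 22.1%, and for 0 of 4 short members, against 3.49%. Within 1 kb of a transcription start site (TSS), 3 of 10 members, Tm1, up and Act57B, had an optimal summit, against 10.3% of all genes. Any annotated TSS of a gene counted, and Tm1 has 8, up 6 and Act57B 1. The part of TSS number and gene length in this count was not tested.

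The 6 genes shared 10 distinct optimal peaks, because the peak in Tm2 also lies within 10 kb of Tm1, which ends 1413 bp before Tm2 begins. Each peak carries a signal, the enrichment given by the authors' peak caller, and a rank by that signal within its list. Signals of the 10 peaks ran from 141 to 1255.2, and those of all optimal peaks from 123 to 7590.5 with a median of 273. Of the 10, 7 lay below that median, and the 3 above it were all in Tm1. The summit fell in a coding exon for 1 of the 10, about the share over all optimal peaks, 10.2%.

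**Figure D1:**
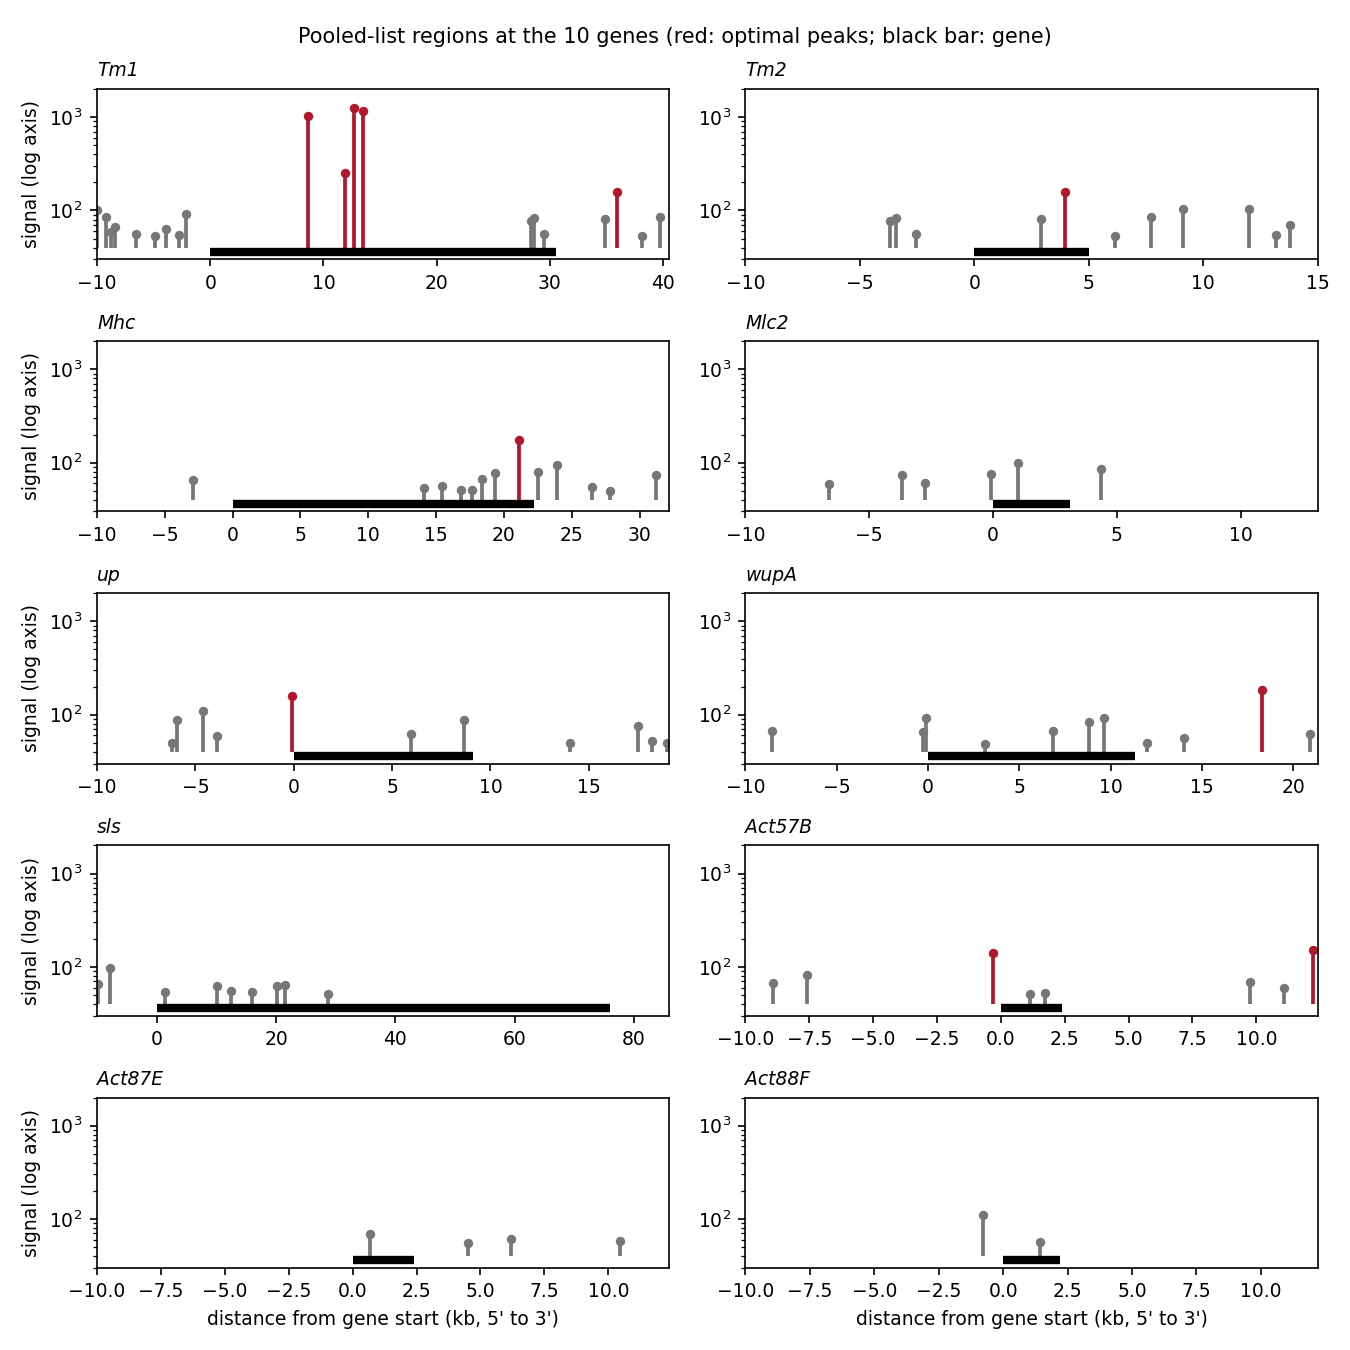
Signal of every region of the pooled list inside or within 10 kb of each gene (log axis), against distance in kb from the 5′ end of the gene, 5′ to 3′; red stems are optimal peaks, grey stems other pooled regions, and the black bar is the gene. Red stems above 1000 appear in Tm1, while those of Tm2, Mhc, up, wupA and Act57B lie between 141 and 185, and Mlc2, sls, Act87E and Act88F have grey stems only.

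Tm1 (FBgn0003721, 3R:15278220-15308779, plus strand, 30.6 kb) encodes tropomyosin, the coiled coil along the thin filament. It had 4 optimal peaks inside, the first 8656 bp from the start of the gene and the last 745 bp past its last TSS, and 5 counting the one in Tm2. A count of 5 or more was found for 1 of the 10 members, against 1.56% of all genes. That number was chosen after the values were seen. The share is not matched for length, and the median length of all genes is 2.16 kb. The first peak, with its summit at 15286876, had a signal of 1030.8 and rank 391 in the optimal set, with 729.5 and rank 385 in replicate 4 and 298 and rank 404 in replicate 2. It lies in an intron, 457 bp downstream of the TSS at 15286419, where a transcript with a reading frame of 678 codons begins. The next, at 15290080, was weaker, with a signal of 250.4 and rank 1647; its signal was 118 in replicate 4 and 124 in replicate 2, at ranks 1992 and 1288.

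The strongest peak of Tm1, at 15290893, had a signal of 1255.2 and rank 303. Its signal was 969 at rank 272 in replicate 4 and 296 at rank 412 in replicate 2. It stands 51 bp upstream of the TSS at 15290944 and 53 bp from that at 15290946, where transcripts of 252 and 250 codons begin. The same summit is 94 bp from the TSS of CG45218 (3R:15290309-15290799, minus strand), a protein-coding gene nested in Tm1 on the opposite strand, so the lists do not tell which of these promoters it belongs to. The fourth peak, at 15291691, had a signal of 1170.3 and rank 329 and lies in an intron, 745 bp downstream of the TSS at 15290946. Its signal was 481 at rank 190 in replicate 2, the best rank of any region at the 10 genes, whereas replicate 4 had no overlapping region and its nearest summit was 799 bp away.

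The peaks were placed unevenly among the 8 annotated TSSs of Tm1. The TSSs at 15286419, 15290944 and 15290946 had an optimal summit within 1 kb. The TSSs at 15281371, 15281532 and 15281550, among which the last begins 7 transcripts of 284 to 711 codons, had none within 5 kb. Near them replicate 2 had a region at 15281018 with a signal of 38.8 and rank 3594, and replicate 4 had no summit nearer than 5326 bp to the TSS at 15281550. The first TSS of the gene, at 15278220, was 8656 bp from an optimal summit, and that at 15288012 was 1136 bp from one.

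**Figure D2:**
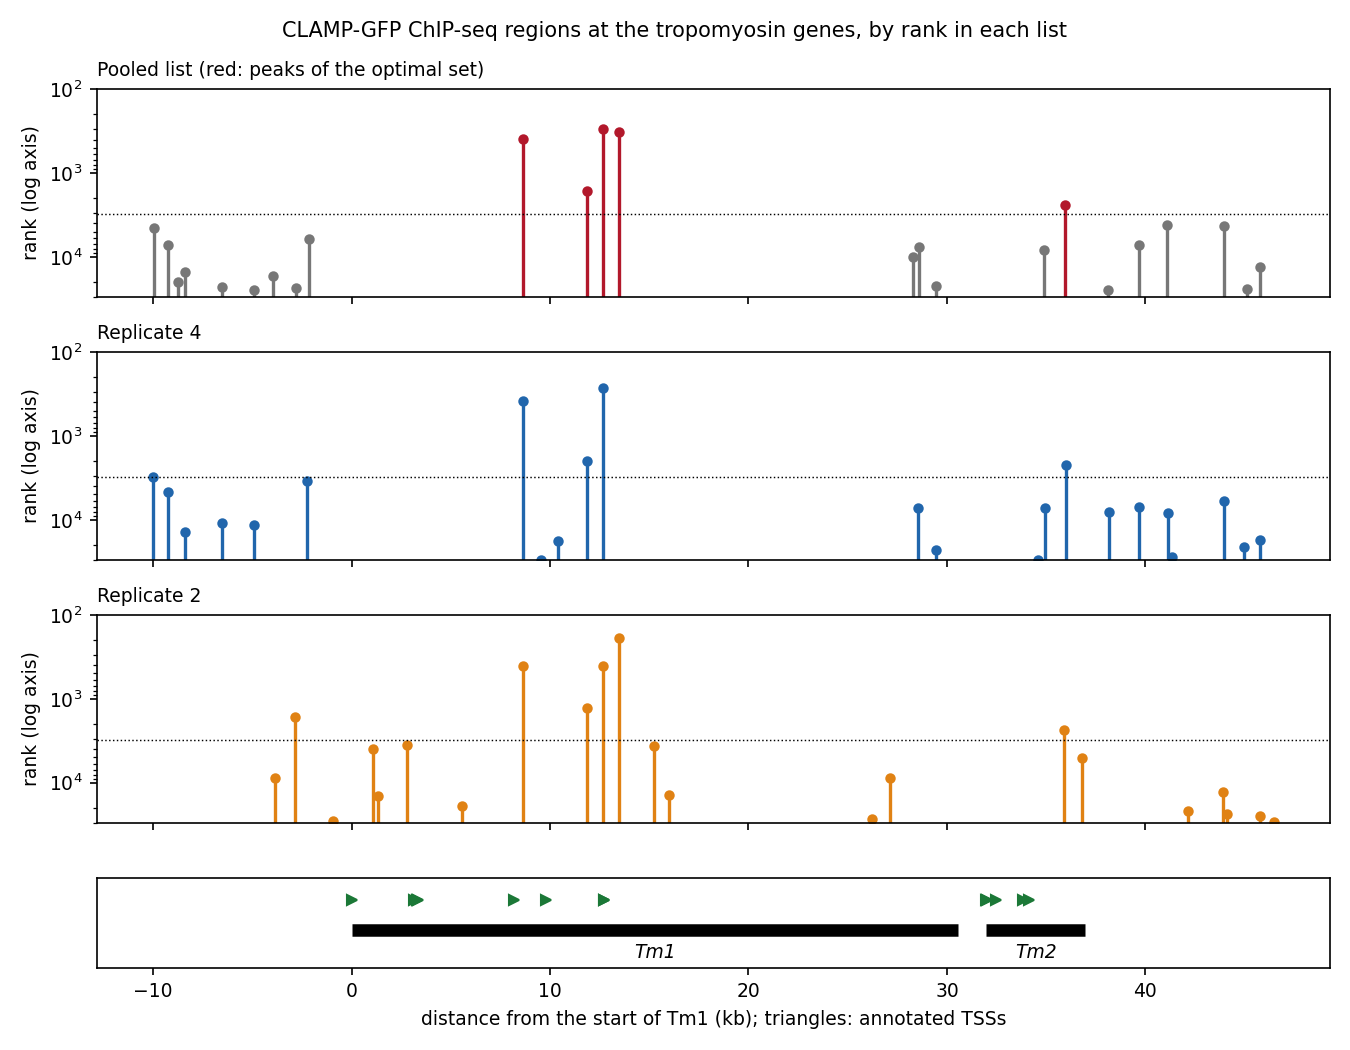
Rank of each region in its own list (log axis, strongest at the top) at Tm1 and Tm2, against distance in kb from the start of Tm1, in the pooled list (red: optimal peaks), replicate 4 and replicate 2; the dotted line marks as many regions as the optimal set holds, black bars are the genes and triangles their annotated TSSs. Both replicates have regions at 3 of the 4 optimal peaks inside Tm1, and the fourth, rank 190 in replicate 2, has no counterpart in replicate 4.

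Tm2 (FBgn0004117, 3R:15310193-15315197, plus strand, 5.0 kb) encodes another tropomyosin of muscle. Its single optimal peak, at 15314171 in an intron, had a signal of 156 and rank 2383. The signal was 107 at rank 2243 in replicate 4 and 62.6 at rank 2370 in replicate 2, so the peak held nearly the same low rank in each list. It lies 1795 bp downstream of the nearest TSS of the gene, at 15312376, and 5392 bp past the end of Tm1.

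Among the troponin genes, up (FBgn0004169, X:13593474-13602578, minus strand, 9.11 kb), which encodes troponin T, had a promoter peak. Its summit at 13602645 stood 67 bp upstream of the TSS at 13602578, with a signal of 158 and rank 2353. In replicate 2 the signal was 31.5 at rank 4736, and in replicate 4 the nearest region of any rank was 5868 bp away. The gene wupA (FBgn0283471, X:18105568-18116922, minus strand, 11.4 kb), which encodes troponin I, had an optimal peak only at a distance. That peak, at 18098616, had a signal of 185 and rank 2083, and ranks of 2124 in replicate 4 and 2450 in replicate 2. It lies 6952 bp past the 3′ end of wupA, in a coding exon of Mvb12, a subunit gene of the endosomal sorting machinery, whose TSS is 1130 bp from the summit. At wupA itself a pooled region 84 bp upstream of the TSS at 18116922 had a signal of 93.2 and rank 5645, below the optimal set, with ranks of 5344 in replicate 4 and 9490 in replicate 2.

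Mhc (FBgn0264695, 2L:16766566-16788766, plus strand, 22.2 kb) encodes the muscle myosin heavy chain, the motor of the thick filament. Its optimal peak, at 16787705, had a signal of 176 and rank 2159. It ranked 1748 in replicate 4, with a signal of 135, and 3321 in replicate 2, with a signal of 42.2. The summit is in an intron near the 3′ end of the gene, 19094 bp from the nearest TSS of Mhc and 3016 bp from that of Cyt-b5-r, the next gene. None of the 5 TSSs of Mhc had a pooled region within 1 kb; the nearest was 2900 bp away. Mlc2 (FBgn0002773, 3R:30171438-30174551, minus strand, 3.11 kb), the gene of the myosin regulatory light chain, had no optimal peak. Its strongest pooled region, in an intron 1022 bp from the TSS, reached 99.1 in signal and rank 4760, and another, 80 bp upstream of the TSS, had 75.1 and rank 10638. The nearest optimal summit to Mlc2 was 10.9 kb away, just outside the distance used.

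Of the 3 actin genes, whose proteins form the thin filament of muscle, Act57B had optimal peaks and Act87E and Act88F had none. Act57B (FBgn0000044, 2R:20944021-20946431, plus strand, 2.41 kb) had a promoter peak 306 bp upstream of its TSS, with a signal of 141 and rank 2618, the lowest of the 10 peaks. That peak ranked 2073 in replicate 4, with a signal of 113, and 3579 in replicate 2, with a signal of 39.0. The other Act57B peak had a signal of 153 and rank 2419 and lies 9821 bp downstream, just inside the distance used, in an intron of hbn, a homeobox gene. At Act88F (FBgn0000047, 3R:15439969-15442177, plus strand, 2.21 kb), the actin gene of flight muscle, the strongest pooled region stood 777 bp upstream of the TSS and reached a signal of 111 and rank 3662, below the lowest optimal signal of 123. In replicate 4 it ranked 2629 with a signal of 97.4, and replicate 2 had no summit nearer than 5640 bp to the TSS. Act87E (FBgn0000046, 3R:13425983-13428375, plus strand, 2.39 kb) had the lowest pooled rank of the 10 genes. Its strongest pooled region, in its coding exon 212 bp from a TSS, reached a signal of 69.3 and rank 13347, with ranks of 11785 in replicate 4 and 13929 in replicate 2. Replicate 2 had a stronger region 3657 bp from the gene, with a signal of 32.8 and rank 4436, ahead of the best regions of Mlc2, sls and Act88F in that list.

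The titin-like gene sls (FBgn0086906, 3L:2039681-2115611, minus strand, 75.9 kb), the longest of the 10, had no optimal peak, and the nearest optimal summit was 30.7 kb away. Its strongest pooled region, 7852 bp upstream in a coding exon of zormin, had a signal of 97.0 and rank 5045, and the 7 pooled regions inside sls had lower signals. At the TSS, replicate 2 had a region 275 bp away at rank 10684, and the pooled list had none within 1 kb. Act87E was 42.1 kb and Act88F 19.3 kb from the nearest optimal summit, against a median of 15.0 kb over all protein-coding genes. A greater distance than that of Act87E was found for 22.7% of all genes, and a greater one than that of sls for 30.3%.

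**Figure D3:**
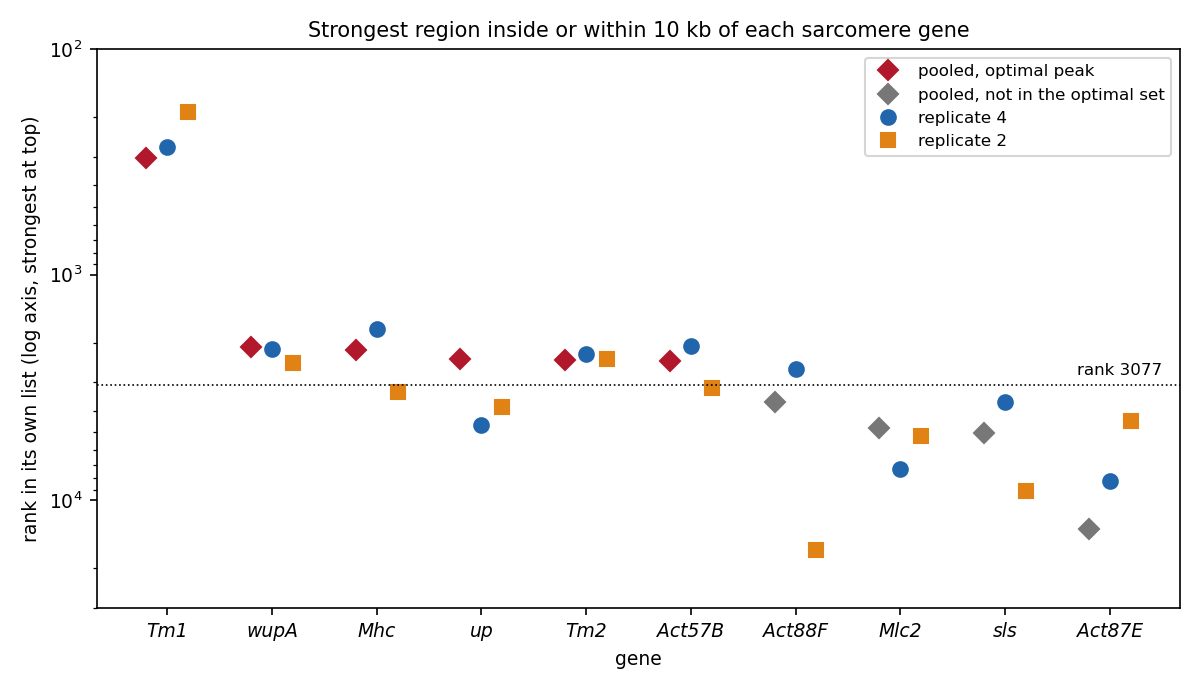
Rank of the strongest region inside or within 10 kb of each gene in the pooled list, replicate 4 and replicate 2 (log axis, strongest at the top), genes in order of pooled rank; red diamonds are optimal peaks, and the dotted line is the number of peaks in the optimal set. Each symbol is the strongest region of its own list and need not be the same site; those of up are at different sites in the 3 lists. Tm1 ranks 303 in the pooled list and 272 in replicate 4 at the same site, which ranks 412 in replicate 2. Its rank of 190 in replicate 2 is at another site, where replicate 4 has no region. The next best symbol is Mhc in replicate 4 at rank 1748.

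By the strongest pooled region inside or within 10 kb, the order of the genes was Tm1, wupA, Mhc, up, Tm2, Act57B, Act88F, Mlc2, sls and Act87E. A stronger region than that of Tm1 was found for 5.34% of all protein-coding genes. The next 5 lay close together, with a stronger region for 28.7% of genes in the case of wupA and 32.4% in that of Act57B. Their signals, 153 to 185, span a narrow range, and their order changed between the replicates, so it carries no ranking among them. Stronger regions were found for 48.0% of genes beside Act88F, 58.5% beside Mlc2, 61.0% beside sls and 87.4% beside Act87E. Within replicate 4 the share with a stronger region was 4.93% for Tm1. Within replicate 2 it was 3.38%, at another Tm1 site that has no region in replicate 4. The order of the 4 genes without an optimal peak, in contrast, was reversed at its ends in replicate 2: the share was 91.7% for Act88F, 77.3% for sls, 56.2% for Mlc2 and 50.3% for Act87E. In replicate 4 it was 38.2% for Act88F, 51.1% for sls, 71.5% for Mlc2 and 75.3% for Act87E. For up, 59.3% of genes had a stronger region in replicate 4, 45.6% in replicate 2 and 31.5% in the pooled list.

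**Figure D4:**
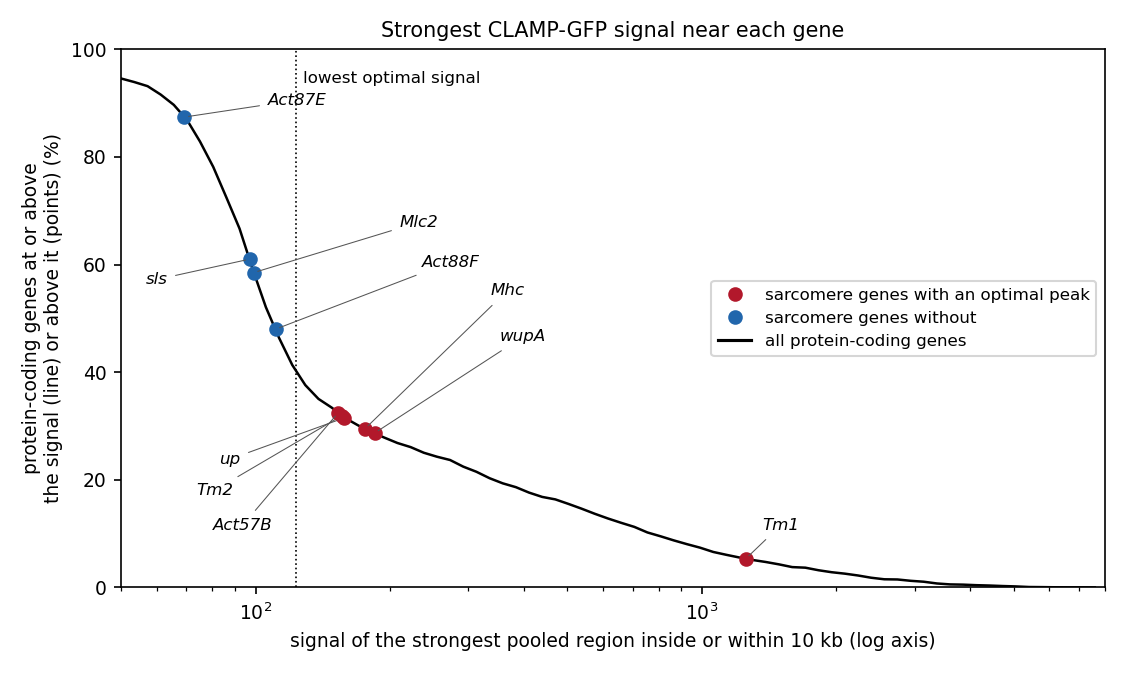
Signal of the strongest pooled region inside or within 10 kb of each gene (log axis) against the percentage of all protein-coding genes at or above that signal (line) or above the member's own signal (points); red points are members with an optimal peak, blue points members without, and the dotted line is the lowest optimal signal, 123. Tm1 lies at 5.34%, the other 5 red points between 28.7% and 32.4%, and the blue points between 48.0% and 87.4%.

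The replicates differed at single sites. A region of each replicate's list had its summit within 200 bp for 8 of the 10 optimal peaks, against 80.0% of all optimal peaks; the exceptions were the Tm1 peak at 15291691 and the up peak, both absent from replicate 4. Taking from replicate 4 alone as many of its strongest regions as the optimal set holds, 6 of the 10 genes had one inside or within 10 kb, against 44.3% of all genes, with Act88F in and up out. With replicate 2 alone 3 genes did, Tm1, Tm2 and wupA, against 38.6% of all genes. The signal at that rank was 89.9 in replicate 4 and 46.1 in replicate 2, and the median over the 30000 regions was 50.9 and 20.2. Whether depth differed between the replicates cannot be read from these lists, and its part in these differences was not tested.

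Below the optimal set the pooled list held 78 more regions at the 10 genes, in a list that has 1 region per 4.42 kb over the 5 arms. Of these 78, 14 were found in both replicates, against 20.9% of all such regions. Their summits fell in coding exons for 52 of 78, against 48.8% of all pooled regions outside the optimal set. These regions are deposited as peaks and background together, so a region alone does not show that CLAMP was bound. Runs of alternating G and A, counted from 8 bp up and within 100 bp, occurred at 3 of the 78, against 2.95%: the intronic region of Mlc2 with 9 bp, the region upstream of the wupA TSS with 9 bp, and a region in an intron of wupA with 15 bp.

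GA runs of 8 bp or more, searched on both strands, lay within 100 bp of 4 of the 10 optimal summits, 3 in Tm1 and the one in Tm2, against 34.4% of all optimal peaks. In windows centred 1000 bp to each side, 1 of 20 held such a run, against 3.31% of the windows around all optimal peaks. That window, beside the Tm1 peak at 15290080, reaches the run already counted at the Tm1 peak at 15290893, so it is not separate from the peaks. The shorter word GAGAG, or CTCTC on the other strand, was present within 100 bp of 9 of the 10 summits, against 74.3%; every GA run of 6 bp or more contains it, and this search was added after the data had been seen. The exception was the up peak. A run as long as the 23 bp of Tm2 was found at 1 of the 10 peaks, against 2.70%. The 3 Tm1 peaks with signals over 1000 had longest runs of 13, 8 and 13 bp, whereas the 23-bp run of Tm2 came with a signal of 156. The run of 8 bp, at the Tm1 peak at 15290893, is cut by the edge of the window, so its full length was not measured. Around the replicate 4 summit 1 bp away the longest run was 7 bp. The share of G and C within 100 bp ran from 44.3% at the Tm1 peak at 15290080 to 60.2% at that at 15290893.

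Read from the sequence instead, 13 GA runs of 12 bp or more lay inside or within 10 kb of the genes, and 4 had an optimal summit within 200 bp, against 24.9% of all such runs on the 5 arms. The 4 were the 2 runs of 13 bp in Tm1, the run of 23 bp in Tm2 and a run of 15 bp upstream of Act57B. The other 9 were a run of 14 bp in Tm1 at 15293383, 4 runs of 12 to 15 bp inside Mhc, 1 of 17 bp inside up, 2 of 13 and 15 bp inside wupA and 1 of 15 bp beside Act88F. Near Mlc2, sls and Act87E there was no run of that length. These 3 genes had no optimal peak, and Act88F, with a run of 15 bp beside it, had none either. Mhc, up and wupA had optimal peaks away from their runs. The part of these runs in the placing of peaks was not tested.

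The other genes of muscle were placed beside these by lists of 4 to 20 names. Among 20 further sarcomere genes 7 had an optimal peak inside or within 10 kb, against 6 of the 10 members and 40.4% of all genes. A peak counted in this way can lie in another gene. A summit lay inside the gene itself for 3 of the 20, against 3 of the 10 members and 9.89% of all genes. The median strongest signal of the genes with a peak was 167 for the 10 members, 587 for the further sarcomere genes and 339 for all genes. The highest of the further genes were Mlp84B, a muscle LIM protein gene, at 2424.0, Actn, the gene of the Z-disc crosslinker alpha-actinin, at 1413.3, and tmod, the gene of tropomodulin that caps the thin filament, at 836. The peak counted for Mlp84B lies in Alh and that for Actn in CG4313, while that of tmod is 133 bp upstream of its own TSS. Of the 3 remaining actin genes, Act5C, a cytoplasmic actin, had 5 optimal peaks and a signal of 2138.2, 110 bp from a TSS, and Act42A and Act79B had none. Across all 6 actin genes, then, Act5C and Act57B had an optimal peak within 10 kb.

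Beside the median of 167 for the 10 sarcomere genes, the lists of genes that direct or surround muscle formation had higher medians. The further sarcomere genes, at 587, and all genes also lay above 167. These medians cover only the genes with a peak, whichever gene the peak lies in. Of all genes 40.4% had an optimal peak, with a median of 339. Of 19 muscle transcription factor genes 14 had an optimal peak, with a median of 2133.4 and 10 genes at 1000 or more, against 1 of the 10 sarcomere genes and 7.31% of all genes, a level chosen after the values were seen. The list was led by ap at 5149.9, lbe at 4804.3 and hth at 4380.0, each within 1 kb of a TSS of the gene itself. These 3 are homeobox genes used in many tissues besides muscle. Of 12 genes of myoblast fusion 4 had a peak, 33.3% against 40.4% of all genes, with a median of 710.0. The strongest were kirre at 982, whose peak lies in N, siz at 747 and mbc at 673. Of 10 genes of muscle attachment 6 had one, with a median of 777, led by the integrin gene mys at 3361.1 with the summit in fs(1)h, parvin at 1015.1 in Abcd3 and the integrin gene mew at 852. Of 4 genes of calcium handling 1 had a peak, RyR, the calcium release channel gene, at 264. The lists differ in gene length, from a median of 1.98 kb for the other actins to 21.7 kb for myoblast fusion, against 7.05 kb for the 10 members and 2.16 kb for all genes, and the part of length in these counts was not tested.

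**Figure D5:**
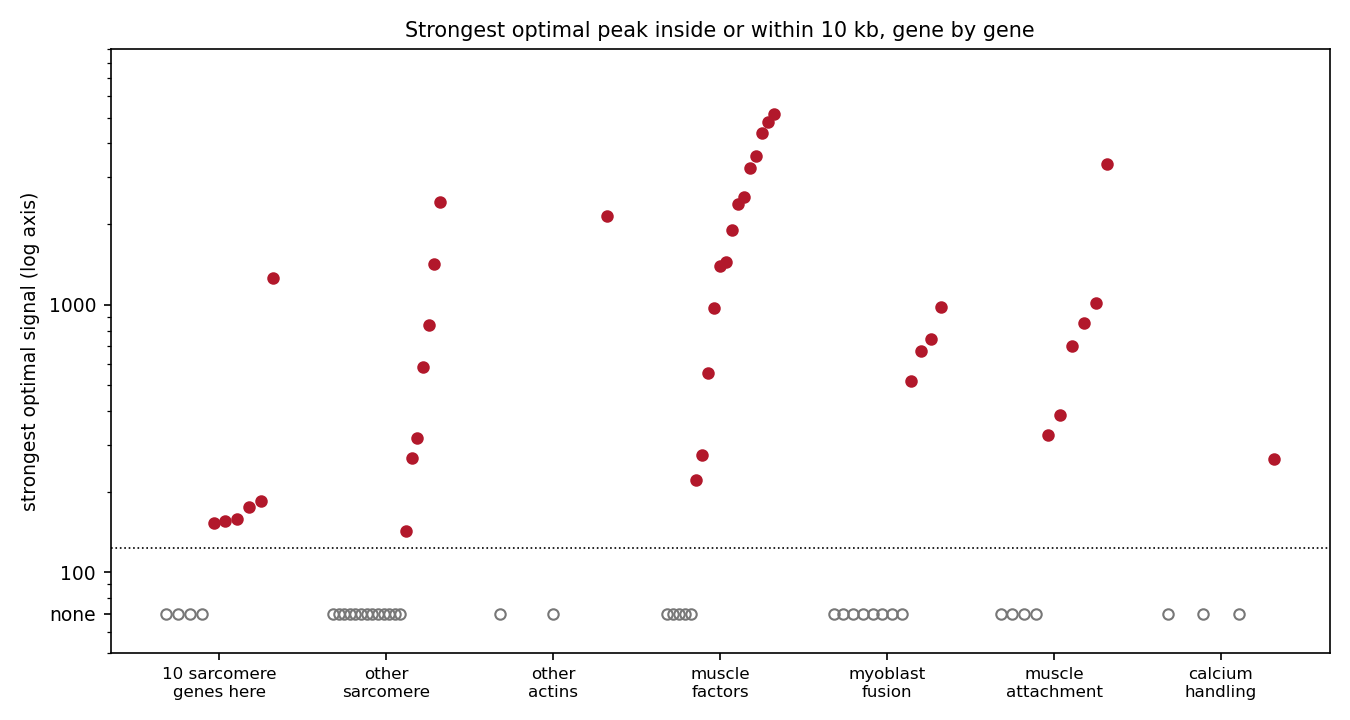
Signal of the strongest optimal peak inside or within 10 kb of each gene (log axis), 1 point per gene, for the 10 sarcomere genes and 6 other lists of muscle genes; open circles on the row marked none are genes with no optimal peak, and the dotted line is the lowest optimal signal, 123. In the list of 10, 5 genes lie between 153 and 185 and Tm1 at 1255.2, while 10 of 19 muscle transcription factor genes lie above 1000, a level reached by 7.31% of all genes.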

How the data were processed

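ChIP-seq of CLAMP-GFP was available for 1 group of 2 biological replicates. For dm6, the authors deposited a list per replicate and a pooled list of 30000 regions each, peaks and background together, and an optimal set of 3077 peaks. Per the deposited text files, each list was called against 1 control file, and the optimal set came from an irreproducible discovery rate step. The signal is the authors' enrichment per region, and it served to describe and rank regions inside their own list. For the aligner, the caller, the threshold and any scaling to depth, no source used here gives a name or value. Lists in dm3 were not used.

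Summits were placed in dm6 on the Release 6 genome, with genes from Ensembl release 115 (BDGP 6.54). No region ended beyond its chromosome. All 78 listed genes were matched, 2 of them through a current symbol. Where annotations overlapped, a 5′ UTR took precedence, then coding exons, 3′ UTRs, other exons and introns. The members and gene lists were chosen with earlier results of these data known, so shares of all genes or regions stand beside each count and no test over the list was made. Other genes named are those that hold, or have the TSS nearest to, an optimal summit of a member, and up to 3 genes per list with the highest optimal signal; zormin, Act42A, Act79B and the genes that hold the peaks of other listed genes (Alh, CG4313, N, fs(1)h and Abcd3) were named outside that rule, after their values had been seen. Alternatives were other distances, run lengths and windows, the 1538 strongest peaks and each replicate alone. The counting was tested on simulated regions with planted answers. Peak lists carry no read totals, so depth is unknown and no counting interval is given. Python 3.11.15, numpy 2.4.6, pandas 2.3.3, pysam 0.24.0 and matplotlib 3.10.9 were used.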

Additional observations from a re-analysis of the deposited data

How the results depend on the processing

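With the optimal peaks above the median signal only, 1 of the 10 genes had a peak inside or within 10 kb, 1 had one within 1 kb of a TSS and 1 had one inside, in each case Tm1, and 3 peaks were left near the genes. With 1 replicate left out at a time, taking from the other as many of its strongest regions as the optimal set holds, the 6 genes with a peak within 10 kb became 3 to 6 (3 without replicate 4), the 3 genes with one within 1 kb of a TSS became 1 to 3 (1 without replicate 4), the 3 genes with one inside became 2 to 3, and the 10 peaks became 7 to 9. At 20 kb the peaks numbered 16 and the genes 8, with Mlc2 and Act88F added; at 1 and 5 kb there were 5 genes, without wupA. Within 50 bp of the summit 2 peaks had a GA run of 8 bp or more, in place of 4. Among that number of strongest regions of each replicate, 5 of the 10 peaks were found in both, in place of 8. The rank of the Mhc peak was 3321 and that of the up peak 4736 in replicate 2. The other alternatives tried stayed within 1.5 times the value reported; for the up peak the setting without replicate 2 gave no rank, since replicate 4 has no region there. No paired analysis was possible because the samples form 1 group. Read counts were not analysed here, so weak peaks and background cannot be separated by depth, and 2 replicates give no estimate of spread beyond their 2 values. The cause of these changes was not tested.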
